A study of Rattus norvegicus with 11 samples.

Results

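Fibroblast growth factors (FGFs) and hepatocyte growth factor (HGF) are secreted proteins that signal through receptor tyrosine kinases. Measured here were 10 genes of both systems, chosen by name with earlier results of these data known. The ligand genes were Fgf2, Fgf7, Fgf9, Fgf10, Fgf18, Fgf21 and Hgf, and the receptor genes were Fgfr1, Fgfr2 and Met. All 10 were among the 32883 genes of the table, each on 1 line, and 7 of them passed the expression filter. Paracrine FGFs bind a receptor together with heparan sulfate on the cell surface, whereas FGF21 is a hormone that needs a Klotho protein as co-receptor. HGF is made as an inactive precursor, mostly by mesenchymal cells, and acts on cells that carry its receptor MET once a protease has cut it. FGF7 and FGF10 are likewise known as mesenchymal factors for epithelial cells, which carry the IIIb splice form of FGFR2.

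Bone marrow mesenchymal stem cells (BMSCs), the adherent stromal cells of marrow, were taken from rats and sequenced at day 3. There were 4 libraries titled IRDC, 3 titled imDC and 4 titled as BMSCs with no addition, which are called control here. The series text describes medium conditioned by dendritic cells that were irradiated (8 Gy) or unirradiated (0 Gy), beside a control arm. It writes mDC where the titles write imDC, and the titles give no dose, so reading IRDC and imDC as the irradiated and unirradiated arms rests on the names. The labels used here give no strain or age of the rats, no number of medium batches and no medium for the controls, so the agent in the medium cannot be told apart from a batch of medium. The libraries are called biological replicates, but no label says that they came from different rats or dishes. The p-values therefore reflect variation among the libraries as sequenced, which could be technical.

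Expression was given as FPKM, a level per length of transcript that takes account of sequencing depth. The libraries held 17800000 to 25500000 recovered reads each. Changes are given as differences of log2(FPKM + 1), each followed by its standard error (SE), and were tested with limma over 12521 genes. Of 10 mesenchymal stromal markers in the table, all 10 passed the filter, and their summed level was 4750 to 4814 FPKM in IRDC, 4305 to 4334 FPKM in imDC and 3631 to 3738 FPKM in control. They did not move as one: Nt5e averaged 164 FPKM in IRDC, 82.9 FPKM in imDC and 22.8 FPKM in control, while Vcam1 averaged 6.03, 16.8 and 32.7 FPKM and Thy1 1060, 862 and 977 FPKM in the same order. Macrophage markers were present too, since 11 of 20 dendritic cell and macrophage genes passed, and their summed level was 429 to 434 FPKM in IRDC, 748 to 777 FPKM in imDC and 741 to 760 FPKM in control. Within that list Lyz2 averaged 185 FPKM in IRDC, 496 FPKM in imDC and 519 FPKM in control, whereas Cd163 averaged 27.5, 20.3 and 0.956 FPKM in the same order. Of the dendritic cell genes Xcr1 and Cd209 had 0 reads, but Cd74 averaged 1.68 FPKM in IRDC, 6.29 FPKM in imDC and 2.63 FPKM in control, and Cd83 averaged 0.576, 1.85 and 5.72 FPKM in the same order. Of 8 epithelial genes 1 passed the filter, Krt8, at 0.310 FPKM in IRDC, 2.24 FPKM in imDC and 0.883 FPKM in control, and Krt19 had 0 reads. The part of macrophages in the changes below was not tested, and in bulk RNA fewer cells of a type cannot be told apart from less RNA per cell.

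Cultures given dendritic cell medium had more mRNA of HGF and its receptor, more Fgf2, and less mRNA of both FGF receptors than control cultures. Hgf was 10.6 times as high in IRDC as in control and 4.59 times as high in imDC. Fgfr2 in IRDC was at 0.120 times its control level, the opposite extreme among these genes. Fgf7 and Fgf10, the most abundant ligands, were at most 1.41 times as high as in control. All 7 tested genes were called in each of the 3 comparisons, but calls were common: limma called 63.2% of all genes in imDC against control, 76.0% in IRDC against control and 58.8% in IRDC against imDC. Of the 7 genes, 5 rose and 2 fell in imDC against control, where 23.1% of all genes were called higher and 40.1% lower. The split was again 5 and 2 in IRDC against control, beside 24.5% higher and 51.5% lower among all genes. In IRDC against imDC 3 rose and 4 fell, beside 20.2% higher and 38.6% lower. In these comparisons 1, 4 and 2 of the 7 genes were called and changed at least 2-fold, against 6.87%, 15.8% and 5.14% of all genes. No group overlapped another in any of the 7 genes, which held for 62.8%, 70.2% and 59.0% of all genes in the same order.

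**Figure D1:**
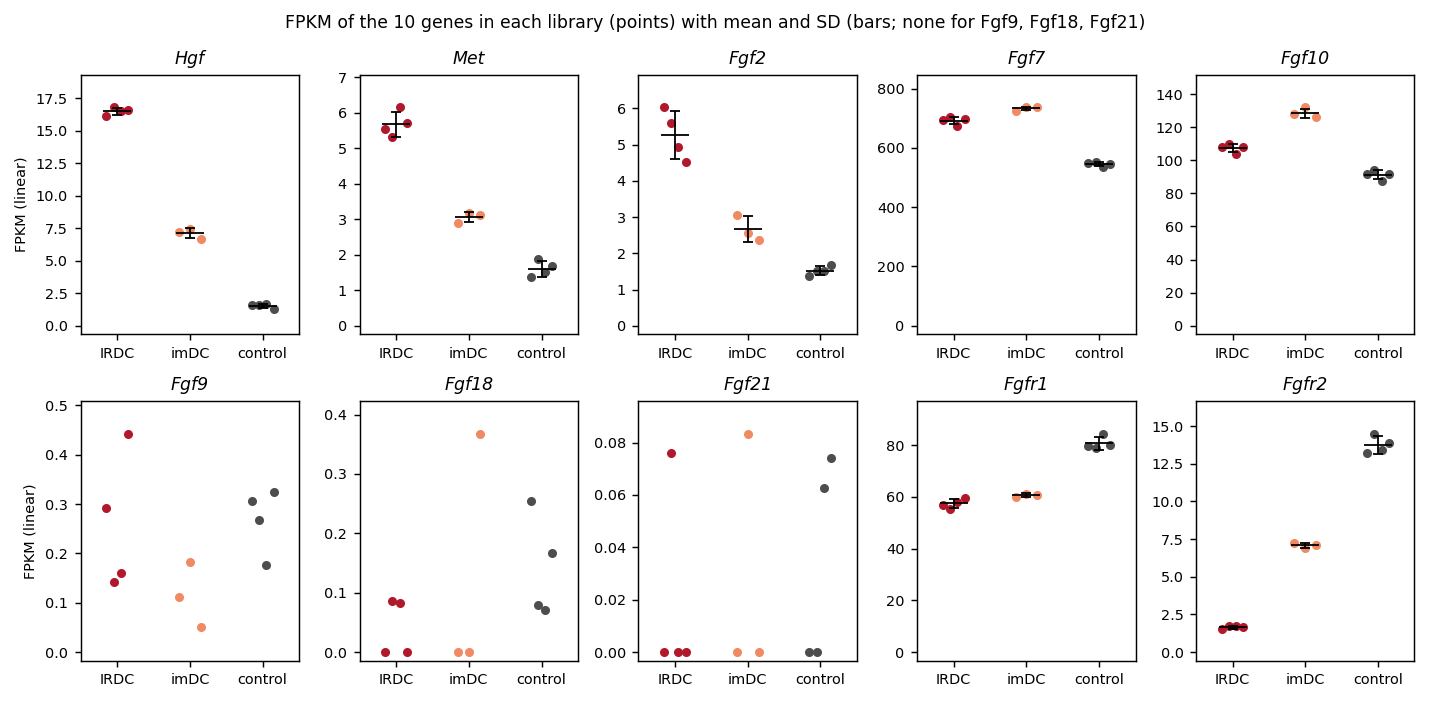
FPKM (linear axes from 0) of the 10 genes in every library of IRDC, imDC and control, with mean and SD over 4, 3 and 4 libraries except for Fgf9, Fgf18 and Fgf21. Hgf, Met and Fgf2 are highest in IRDC and lowest in control, Fgfr2 runs the other way, and Fgf7 and Fgf10 are highest in imDC.

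The 250 bases before the RefSeq start of 3 genes are shown, because Hgf rose most, Fgfr2 fell most and Fgf2 was the FGF ligand that rose most. They are RefSeq sequence of the build GRCr8, on the strand of the gene, whose table held a window for 9 of the 10 genes (all but Fgfr1). A set of 3 short motifs was searched on both strands: TGANTCA (AP-1), ACGTG (the core of the hypoxia response element) and GGGCGG (the GC box). Capitals mark matches, and none of those printed overlap each other.
Hgf, chr4:19700468-19700717, minus strand: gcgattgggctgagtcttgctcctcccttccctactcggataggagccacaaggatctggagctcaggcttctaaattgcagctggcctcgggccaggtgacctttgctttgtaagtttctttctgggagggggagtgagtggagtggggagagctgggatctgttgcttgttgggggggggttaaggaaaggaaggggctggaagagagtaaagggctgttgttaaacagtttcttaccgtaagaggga
Fgf2, chr2:122164204-122164453, plus strand: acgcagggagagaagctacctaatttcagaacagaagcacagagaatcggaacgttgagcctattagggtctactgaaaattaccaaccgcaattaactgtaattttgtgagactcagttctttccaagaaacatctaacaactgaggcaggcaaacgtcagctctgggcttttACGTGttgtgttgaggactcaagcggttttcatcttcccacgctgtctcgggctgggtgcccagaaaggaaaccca
Fgfr2, chr1:194280915-194281164, minus strand: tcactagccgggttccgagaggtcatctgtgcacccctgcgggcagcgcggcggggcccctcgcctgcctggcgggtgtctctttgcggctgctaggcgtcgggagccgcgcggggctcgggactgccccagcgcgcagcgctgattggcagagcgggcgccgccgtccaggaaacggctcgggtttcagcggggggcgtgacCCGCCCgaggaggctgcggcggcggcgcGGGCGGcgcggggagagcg
The Hgf window held 0 matches, the Fgf2 window 1 match to the hypoxia core and the Fgfr2 window 2 matches to the GC box. Among 33469 windows of the same length, 6.3% held the AP-1 motif, 16.6% the hypoxia core and 30.5% the GC box. G and C made up 54.0% of the Hgf window, 46.8% of the Fgf2 window and 76.8% of the Fgfr2 window, with a median of 51.2% over all windows. A match in these letters is a description of the sequence and not a binding site.

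Hgf (ENSRNOG00000007027), the gene of the ligand of MET, had 16.1, 16.8, 16.5 and 16.6 FPKM in IRDC libraries, 7.19, 7.44 and 6.69 FPKM in imDC libraries and 1.62, 1.61, 1.64 and 1.32 FPKM in control libraries. The 3 groups stood wholly apart, and the lowest IRDC library was above the highest imDC library. Behind these values were 1979 to 2132 reads per IRDC library, 764 to 850 per imDC library and 170 to 250 per control library. Hgf rose by 2.78 (SE 0.055, adjusted p = 1.3e-13) in IRDC against control and by 1.67 (SE 0.059, adjusted p = 1.3e-10) in imDC against control. IRDC also exceeded imDC, by 1.11 (SE 0.059, adjusted p = 8.4e-09). Ordered by fold change from the highest, Hgf was gene 129 of 12521 in IRDC against control and gene 161 in imDC against control.

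Met (ENSRNOG00000052745), the HGF receptor gene, moved in the same direction as Hgf, with levels below those of Hgf in both medium groups and like them in control. It had 5.54, 5.31, 6.15 and 5.71 FPKM in IRDC, 2.90, 3.18 and 3.12 FPKM in imDC, and 1.36, 1.89, 1.51 and 1.67 FPKM in control. Again no libraries of different groups overlapped. The rise was 1.36 (SE 0.074, adjusted p = 3.2e-09) in IRDC against control, 0.65 (SE 0.080, adjusted p = 1.7e-05) in imDC against control and 0.71 (SE 0.080, adjusted p = 8.4e-06) in IRDC against imDC. Ligand and receptor did not move by the same factor. The ratio of Hgf to Met FPKM within a library, which does not change when a library is scaled by a single factor, averaged 2.92 ± 0.20 in IRDC, 2.32 ± 0.17 in imDC and 0.98 ± 0.19 in control (SD, n = 4, 3 and 4). In control cultures both genes thus stood at like levels, while in both medium groups every library had more than 2 times as much Hgf as Met.

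Fgf2 (ENSRNOG00000017392) encodes basic FGF, a ligand without a classical signal peptide that is widely used to expand stromal cells in culture. Its values were 6.03, 5.59, 4.94 and 4.52 FPKM in IRDC, 3.06, 2.56 and 2.38 FPKM in imDC, and 1.37, 1.51, 1.51 and 1.68 FPKM in control. The groups did not overlap, though IRDC libraries spread more widely than for Met. Fgf2 rose by 1.31 (SE 0.089, adjusted p = 3.1e-08) in IRDC against control, by 0.54 (SE 0.096, adjusted p = 3.7e-04) in imDC against control and by 0.77 (SE 0.096, adjusted p = 2.2e-05) in IRDC against imDC. These values rested on few reads, 123 to 157 per IRDC library, 59 to 69 per imDC library and 37 to 49 per control library. Fgf2 overlaps Nudt6, a nudix hydrolase gene, in RefSeq, so without strand their reads may not be told apart. Nudt6 moved with it, at 6.75 ± 0.543 FPKM in IRDC, 4.42 ± 0.637 FPKM in imDC and 2.48 ± 0.282 FPKM in control, and its part in the Fgf2 values was not tested.

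Fgf7 (ENSRNOG00000009425), the keratinocyte growth factor gene, had the highest FPKM of the 10 genes in every group. It reached 694, 705, 674 and 696 FPKM in IRDC, 726, 737 and 737 FPKM in imDC, and 549, 552, 537 and 547 FPKM in control. Both medium groups lay above control, and imDC above IRDC. Fgf7 rose by 0.34 (SE 0.016, adjusted p = 6.0e-10) in IRDC against control and by 0.42 (SE 0.017, adjusted p = 3.8e-10) in imDC against control. Between the medium groups it fell by 0.083 in IRDC against imDC (SE 0.017, adjusted p = 0.0011). Those shifts are small enough to turn on the scaling: with quantile normalization the change was -0.01 (adjusted p = 0.67) in IRDC against control and 0.08 in imDC against control, and with TMM-like scaling it was 0.55 in IRDC against control and 0.02 (adjusted p = 0.50) in IRDC against imDC. Fam227b, which overlaps Fgf7 in RefSeq, had at most 67 reads in a library, against at least 8068 reads of Fgf7.

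Fgf10 (ENSRNOG00000012278), whose product shares the epithelial receptor form with FGF7, had 108, 110, 104 and 108 FPKM in IRDC, 128, 132 and 126 FPKM in imDC, and 91.5, 94.1, 87.4 and 91.7 FPKM in control. As with Fgf7, imDC libraries were the highest and control libraries the lowest, with no overlap. The rise was 0.23 (SE 0.025, adjusted p = 3.1e-06) in IRDC against control and 0.49 (SE 0.027, adjusted p = 1.1e-08) in imDC against control, and Fgf10 fell by 0.26 (SE 0.027, adjusted p = 6.0e-06) in IRDC against imDC. With TMM-like scaling the changes were 0.44 in IRDC against control and -0.15 in IRDC against imDC. The ratio of Fgf7 to Fgf10 within a library was 6.45 ± 0.016 in IRDC, 5.72 ± 0.13 in imDC and 5.99 ± 0.12 in control. That ratio is one of levels per length: reads were close in number, 8068 to 10346 per library for Fgf7 and 8234 to 10666 for Fgf10, but the FPKM steps give lengths of 693 bases for Fgf7 and 4243 bases for Fgf10, so the order of their levels depends on the gene models.

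The other 3 ligands were near or at the limit of detection and below the filter. Fgf9 (ENSRNOG00000011471), a ligand of skeletal growth, had 12, 6, 7 and 19 reads in IRDC, 4, 7 and 2 reads in imDC, and 13, 12, 9 and 14 reads in control, or 0.0511 to 0.443 FPKM. Its IRDC and control libraries overlapped, and in limma without a filter the changes had adjusted p = 0.92 in IRDC against control, 0.10 in imDC against control and 0.14 in IRDC against imDC. Fgf18 (ENSRNOG00000048389), a ligand of cartilage and bone, had 0, 1, 1 and 0 reads in IRDC, 0, 0 and 4 reads in imDC, and 3, 1, 1 and 2 reads in control. Fgf21 (ENSRNOG00000020990) had 1 read in IRDC replicate 2, 1 in imDC replicate 2 and 1 each in control replicates 3 and 4, and 0 in the other 7 libraries. A count of 0 allows up to 3 reads, which for Fgf21 is 0.187 to 0.269 FPKM depending on the library and covers counting error only. No difference in Fgf18 or Fgf21 was detectable at this depth.

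Fgfr1 (ENSRNOG00000016050), the FGF receptor gene with the highest level in these cells, had 56.9, 55.5, 58.1 and 59.6 FPKM in IRDC, 59.8, 61.3 and 60.8 FPKM in imDC, and 79.6, 78.9, 84.5 and 80.0 FPKM in control. Control libraries stood clear of both medium groups, while the highest IRDC library lay just under the lowest imDC library. Fgfr1 fell by 0.48 (SE 0.028, adjusted p = 5.6e-09) in IRDC against control and by 0.41 (SE 0.030, adjusted p = 1.4e-07) in imDC against control. The first of these was -0.28 with TMM-like scaling. In IRDC against imDC the difference was -0.076 (SE 0.030, adjusted p = 0.045), and this call was weak. It was lost without control replicate 1 or 4, imDC replicate 1, 2 or 3, or IRDC replicate 1, 2 or 3 (adjusted p = 0.054 to 0.13), without a filter (0.064), without a trend (0.088) and with quantile normalization (0.20), and the difference was 0.03 (adjusted p = 0.38) with TMM-like scaling.

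Fgfr2 (ENSRNOG00000016374) encodes the receptor whose IIIb form binds FGF7 and FGF10 and whose IIIc form is the usual one of mesenchymal cells; FPKM per gene do not separate the forms. Its libraries had 1.50, 1.70, 1.75 and 1.65 FPKM in IRDC, 7.26, 6.92 and 7.12 FPKM in imDC, and 13.2, 14.5, 13.4 and 13.9 FPKM in control. The groups were far apart, with 147 to 181 reads per IRDC library, 616 to 665 per imDC library and 1339 to 1633 per control library. Fgfr2 fell by 2.48 (SE 0.050, adjusted p = 1.8e-13) in IRDC against control, by 0.86 (SE 0.054, adjusted p = 3.0e-08) in imDC against control and by 1.61 (SE 0.054, adjusted p = 1.1e-10) in IRDC against imDC. Esrp1, an epithelial splicing factor gene that favours the IIIb form, had 0 reads in each IRDC and imDC library and at most 1 read in a control library. Since Fgfr2 fell more than Fgfr1, the ratio of Fgfr1 to Fgfr2 within a library was 34.9 ± 2.5 in IRDC, 8.55 ± 0.31 in imDC and 5.88 ± 0.37 in control (SD, n = 4, 3 and 4).

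**Figure D2:**
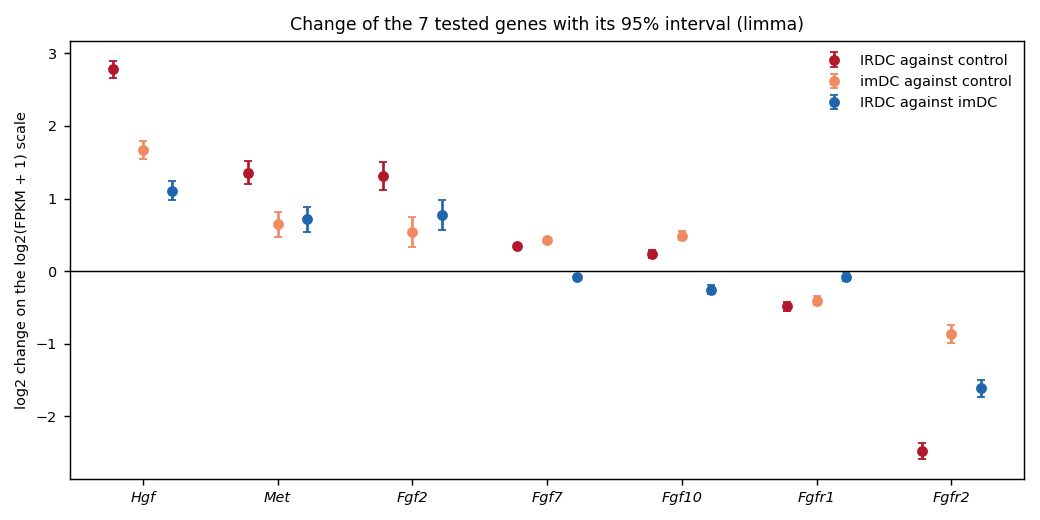
Differences on the log2(FPKM + 1) scale for the 7 tested genes in 3 comparisons (points) with the 95% interval of limma. Hgf has the largest positive change (2.78 in IRDC against control) and Fgfr2 the largest negative one (-2.48), while Fgf7 and Fgfr1 lie close to 0 in IRDC against imDC.

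**Figure D3:**
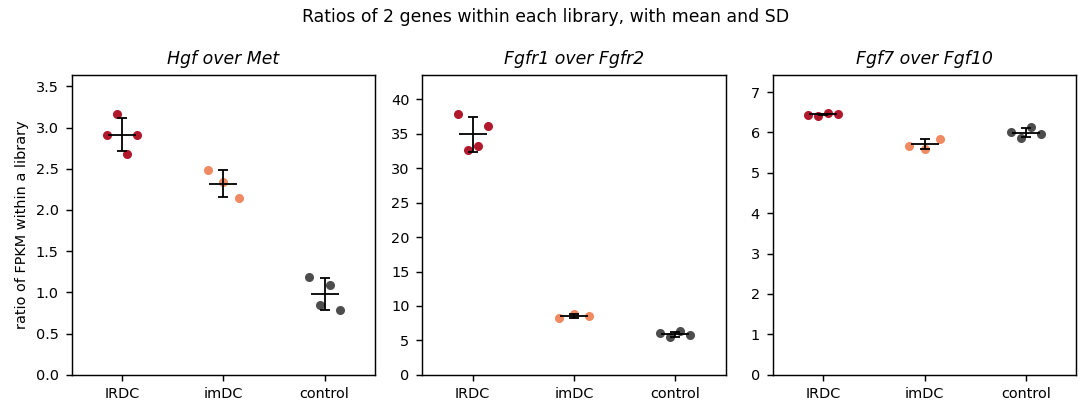
Ratio of the FPKM of 2 genes within each library (linear axis from 0), with mean and SD per group. Fgfr1 over Fgfr2 is 32.5 to 37.9 in IRDC against 5.43 to 6.30 in control, and Hgf over Met is 2.68 to 3.17 in IRDC against 0.789 to 1.20 in control, whereas Fgf7 over Fgf10 lies between 5.60 and 6.46 in all libraries.

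The order of the levels changed below the first 3 places. Fgf7, Fgf10 and Fgfr1 led in this order of FPKM in all 3 groups, each apart from the next. These are levels per length, and the order of Fgf7 and Fgf10 depends on the gene models. Summed reads of Fgf10 and Fgf7 were 38537 and 40613 in IRDC, 30731 and 28706 in imDC, and 35070 and 34340 in control. In IRDC these 3 genes were followed by Hgf, then by Met and Fgf2, whose ranges overlapped, and then by Fgfr2. In imDC Hgf and Fgfr2 were next, at 7.11 ± 0.381 and 7.10 ± 0.171 FPKM with overlapping ranges, before Met and Fgf2, which overlapped as well. In control Fgfr2 held the fourth place, and Met, Hgf and Fgf2 followed with overlapping ranges of neighbours. Fgfr2 thus went with the higher genes in control and was the lowest of the 7 in IRDC.

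Scaling by the authors left the median of all genes at -0.18 in IRDC against control, -0.089 in imDC against control and -0.091 in IRDC against imDC, and TMM-like scaling moved these to 0.005, 0.001 and 0. Relative to the median of all genes, the rises of Fgf7 and Fgf10 are therefore larger and the falls of Fgfr1 smaller than given above. Calls were higher in 32.3%, 36.6% and 34.4% of cases with the authors' scaling, in 50.3%, 50.5% and 50.7% with TMM-like scaling and in 46.3%, 44.2% and 50.2% with quantile normalization. Hgf, Met, Fgf2 and Fgfr2 kept direction and call under both other scalings in all 3 comparisons.

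**Figure D4:**
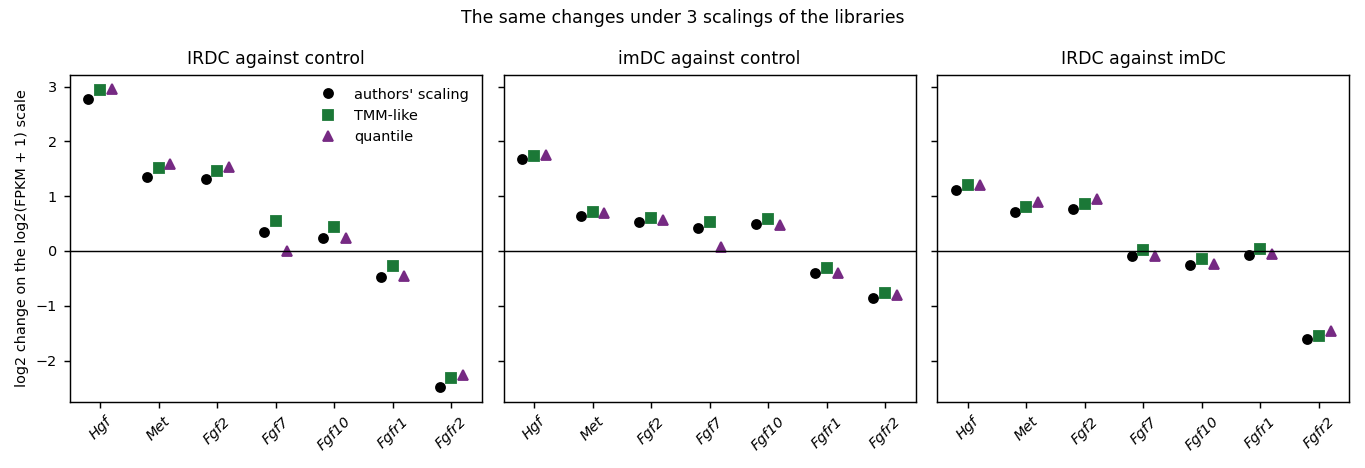
Differences on the log2(FPKM + 1) scale of the 7 tested genes under the authors' scaling, TMM-like scaling and quantile normalization. Only Fgf7 and Fgfr1 change side of 0, Fgf7 at -0.01 with quantile normalization in IRDC against control and at 0.02 with TMM-like scaling in IRDC against imDC, and Fgfr1 at 0.03 with TMM-like scaling in IRDC against imDC.

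Genes with the most similar course were sought for the 4 genes that changed at least 2-fold, by Pearson's r over the 11 libraries, which fall into 3 groups set apart from each other. Candidates were tested genes with a name, other than the 10, with a mean of at least 5 FPKM over all libraries. Hgf was closest to Slc16a1, Fstl3 and Nuak1 (r = 0.9990, 0.9989 and 0.9988). Fstl3, which encodes a follistatin-like inhibitor of activins, averaged 54.8 FPKM in IRDC, 20.8 FPKM in imDC and 4.17 FPKM in control. Met was closest to Slc7a1, Cxcl16 and Pak1 (r = 0.9957, 0.9943 and 0.9941), and Fgf2 to Fam135a, Picalm and Pros1 (r = 0.9885, 0.9882 and 0.9879). Fgfr2 was closest to Arnt2, Poglut3 and S1pr3 (r = 0.9992, 0.9992 and 0.9990). S1pr3, a sphingosine 1-phosphate receptor gene, averaged 3.49 FPKM in IRDC, 19.8 FPKM in imDC and 48.6 FPKM in control. Among the 10 genes Hgf and Met had r = 0.98, Fgf7 and Fgf10 r = 0.928, and Fgfr2 and Fgf2 r = -0.98. These pairs did not stand out, as Fgf2 and Met had r = 0.966 and Fgfr2 and Met r = -0.978. The weakest pair was Fgf10 and Fgfr2 (r = -0.369).

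Of 11 further FGF ligand genes, 2 passed the filter, and they moved apart. Fgf1, the gene of acidic FGF, averaged 0.515 ± 0.114 FPKM in IRDC, 3.40 ± 0.0536 FPKM in imDC and 5.23 ± 0.476 FPKM in control, and fell by 2.04 (SE 0.077, adjusted p = 8.3e-11) in IRDC against control and by 0.50 (SE 0.083, adjusted p = 2.2e-04) in imDC against control. Fgf22 averaged 12.3 ± 1.04 FPKM in IRDC, 4.63 ± 0.168 FPKM in imDC and 4.91 ± 0.534 FPKM in control, so that it rose by 1.17 (SE 0.072, adjusted p = 1.1e-08) in IRDC against control but was not called in imDC against control (-0.06, adjusted p = 0.49). It rose by 1.24 (SE 0.078, adjusted p = 4.1e-08) in IRDC against imDC. The other 9 ligands of that list stayed under the filter, as did all 4 intracellular FGF homologous factors. Fgfr4 had 4 reads and Kl, a Klotho co-receptor gene, 1 read over all libraries. Klb, the other Klotho gene looked up, was not in the table under that name, so its level is not known.

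Of 12 tested genes among further FGF receptors and co-receptors, 4 rose and 6 fell in IRDC against control, 5 rose and 6 fell in imDC against control, and 5 rose and 2 fell in IRDC against imDC. All-gene shares were 24.5% higher and 51.5% lower, 23.1% and 40.1%, and 20.2% and 38.6% in the same order. Under TMM-like scaling the splits of the list were 5 and 5, 5 and 6, and 6 and 2. Of all genes, 36.7% then rose and 36.3% fell, 30.2% and 29.5%, and 29.0% and 28.2%. Fgfr3 averaged 1.66 ± 0.249 FPKM in IRDC, 1.43 ± 0.0408 FPKM in imDC and 2.51 ± 0.427 FPKM in control, and Fgfrl1, a receptor without a kinase domain, averaged 6.22 ± 0.264, 6.71 ± 0.295 and 8.48 ± 0.656 FPKM in the same order. Both fell against control in both medium groups and were not called in IRDC against imDC (adjusted p = 0.33 for Fgfr3 and 0.20 for Fgfrl1). Flrt2, a transmembrane protein gene whose family binds FGF receptors, rose by 2.65 (SE 0.031, adjusted p = 1.0e-15) in IRDC against control, to 141 ± 0.735 FPKM against 21.7 ± 0.699 FPKM in control. Its relative Flrt3 fell by 1.34 (SE 0.085, adjusted p = 1.5e-08). The heparan sulfate carriers Sdc1 and Sdc4 rose by 1.64 (SE 0.048) and 0.62 (SE 0.023), while the glypicans Gpc1 and Gpc6 fell by 1.24 (SE 0.025) and 0.60 (SE 0.049), all in IRDC against control. Fgfbp3, an FGF carrier protein gene, was under the filter, at 0.349 ± 0.150 FPKM in IRDC and 1.07 ± 0.496 FPKM in control.

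Heparan sulfate, the polysaccharide that FGFs and HGF bind, is made and edited by a set of enzymes of which 19 were tested. In IRDC against control 6 rose and 9 fell, in imDC against control 6 rose and 10 fell, and in IRDC against imDC 6 rose and 8 fell. These were 31.6% and 47.4%, 31.6% and 52.6%, and 31.6% and 42.1% of the list. Over all genes 24.5% rose and 51.5% fell, 23.1% and 40.1%, and 20.2% and 38.6% in the same order. With TMM-like scaling 9 rose and 8 fell in IRDC against control, and 10 rose and 6 fell in IRDC against imDC. Those were 47.4% and 42.1%, and 52.6% and 31.6%, beside 36.7% and 36.3%, and 29.0% and 28.2% of all genes under that scaling. Both extracellular 6-O-sulfatases were among those that moved most, in opposite directions. Sulf1 averaged 318 ± 2.73 FPKM in IRDC, 143 ± 0.916 FPKM in imDC and 57.4 ± 0.740 FPKM in control, and rose by 2.45 (SE 0.016, adjusted p = 5.0e-18) in IRDC against control. Sulf2 averaged 13.3 ± 0.791 FPKM in IRDC, 44.8 ± 1.01 FPKM in imDC and 75.9 ± 1.34 FPKM in control, and fell by 2.42 (SE 0.036, adjusted p = 9.9e-15). Hs6st1, which adds 6-O-sulfate, and Ndst3, an N-sulfotransferase gene, rose by 1.26 (SE 0.026) and 1.62 (SE 0.058), and Hs2st1, which adds 2-O-sulfate, fell by 0.81 (SE 0.025), as did the xylosyltransferase gene Xylt1, by 1.55 (SE 0.081). The median of the list was -0.11 in IRDC against control, beside -0.18 for all genes.

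Proteases and inhibitors that act on HGF were low or mixed. Of 15 such genes 6 were tested, with 3 up and 3 down in IRDC against control, 3 up and 2 down in imDC against control, and 2 up and 3 down in IRDC against imDC. Shares of all genes were 24.5% up and 51.5% down, 23.1% and 40.1%, and 20.2% and 38.6% in the same order. A list of 6 genes is too short to tell a departure from these shares. TMM-like scaling changed the split in imDC against control to 3 and 1, beside 30.2% and 29.5% of all genes. It left the other splits as they were. St14, the gene of the HGF-cleaving protease matriptase, fell by 0.86 (SE 0.097, adjusted p = 4.4e-06) in IRDC against control, to 1.00 ± 0.0640 FPKM against 2.64 ± 0.410 FPKM in control. Spint2, an inhibitor of HGF activation, averaged 6.28 ± 0.534 FPKM in IRDC, 7.72 ± 1.01 FPKM in imDC and 4.15 ± 0.653 FPKM in control. The plasminogen activator genes Plau and Plat fell by 1.43 (SE 0.040) and 0.91 (SE 0.068) in IRDC against control, while the urokinase receptor gene Plaur rose by 2.82 (SE 0.052).

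Among 13 tested partners of MET, 6 rose and 6 fell in IRDC against control, 4 rose and 7 fell in imDC against control, and 7 rose and 5 fell in IRDC against imDC. The shares were 46.2% and 46.2%, 30.8% and 53.8%, and 53.8% and 38.5%. Those of all genes were 24.5% higher and 51.5% lower, 23.1% and 40.1%, and 20.2% and 38.6%. With TMM-like scaling 7 rose and 4 fell in IRDC against control, and 4 rose and 5 fell in imDC against control. Those were 53.8% and 30.8%, and 30.8% and 38.5%, beside 36.7% and 36.3%, and 30.2% and 29.5% of all genes under that scaling. The ubiquitin ligase genes Cbl and Cblb, whose products mark active receptors for degradation, rose by 0.80 (SE 0.055) and 0.62 (SE 0.034) in IRDC against control, and the phosphatase gene Ptpn1 by 0.54 (SE 0.039). Itga6, an integrin gene, fell by 3.14 (SE 0.070, adjusted p = 4.6e-13), to 0.223 ± 0.0491 FPKM in IRDC against 9.76 ± 0.186 FPKM in control. Nrp1, a co-receptor gene, and Lrig1, whose product lowers receptor levels, fell by 1.41 (SE 0.035) and 1.25 (SE 0.11). Lrig1 was low, at 0.263 ± 0.0684 FPKM in IRDC, 1.35 ± 0.106 FPKM in imDC and 2.02 ± 0.495 FPKM in control.

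Downstream of both receptor families, 22 adaptor and RAS-ERK genes were tested, of which 7 rose and 9 fell in IRDC against control, 3 rose and 12 fell in imDC against control, and 10 rose and 2 fell in IRDC against imDC. As shares of the list, 31.8% rose and 40.9% fell in IRDC against control, 13.6% and 54.5% in imDC against control and 45.5% and 9.09% in IRDC against imDC. Among all genes 24.5% rose and 51.5% fell, 23.1% and 40.1%, and 20.2% and 38.6% in the same order. These splits turned on the scaling: with TMM-like scaling 13 rose and 4 fell in IRDC against control, 4 rose and 6 fell in imDC against control and 15 rose and 2 fell in IRDC against imDC, and with quantile normalization the splits were 10 and 5, 3 and 9, and 12 and 2. The TMM-like shares were 59.1% higher and 18.2% lower, 18.2% and 27.3%, and 68.2% and 9.09% of the list. Over all genes they were 36.7% and 36.3%, 30.2% and 29.5%, and 29.0% and 28.2%. Quantile normalization gave 45.5% and 22.7%, 13.6% and 40.9%, and 54.5% and 9.09% of the list. It gave 33.5% and 38.9%, 27.1% and 34.3%, and 28.3% and 28.1% of all genes. Map2k1, the MEK1 kinase gene, averaged 154 ± 3.31 FPKM in IRDC, 104 ± 3.98 FPKM in imDC and 61.5 ± 2.84 FPKM in control, and the adaptor gene Shc1 rose by 0.66 (SE 0.018) and Pik3r1 by 0.39 (SE 0.044) in IRDC against control. Frs2, the docking protein gene of FGF receptors, fell by 0.67 (SE 0.036, adjusted p = 2.9e-09), Mapk3 by 0.47 (SE 0.028) and Map2k2 by 0.39 (SE 0.046). The median of this list was -0.066 in IRDC against control, beside -0.18 for all genes.

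Genes that ERK signalling is known to induce did not move one way. Of 17 tested, 8 rose and 6 fell in IRDC against control, 7 rose and 6 fell in imDC against control, and 6 rose and 6 fell in IRDC against imDC. In shares this was 47.1% and 35.3%, 41.2% and 35.3%, and 35.3% and 35.3%. Beside it, 24.5% of all genes rose and 51.5% fell, 23.1% and 40.1%, and 20.2% and 38.6%. With TMM-like scaling 11 rose and 4 fell in IRDC against control, and 9 rose and 5 fell in IRDC against imDC. Those were 64.7% and 23.5%, and 52.9% and 29.4%, beside 36.7% and 36.3%, and 29.0% and 28.2% of all genes under that scaling. Spred3, Fosl1 and Myc rose by 1.85 (SE 0.053), 1.50 (SE 0.054) and 1.38 (SE 0.041) in IRDC against control. Il17rd, a membrane inhibitor of FGF signalling, fell by 1.79 (SE 0.083, adjusted p = 6.9e-10), the transcription factor gene Etv1 fell by 1.50 (SE 0.073) and the cyclin gene Ccnd1 fell by 1.42 (SE 0.025). Il17rd averaged 0.363 ± 0.0583 FPKM in IRDC, 0.818 ± 0.192 FPKM in imDC and 3.70 ± 0.199 FPKM in control. It thus passed the filter mainly through the control libraries. Over these 17 genes the median change was 0.13 in IRDC against control and 0.14 in imDC against control, beside -0.18 and -0.089 for all genes.

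**Figure D5:**
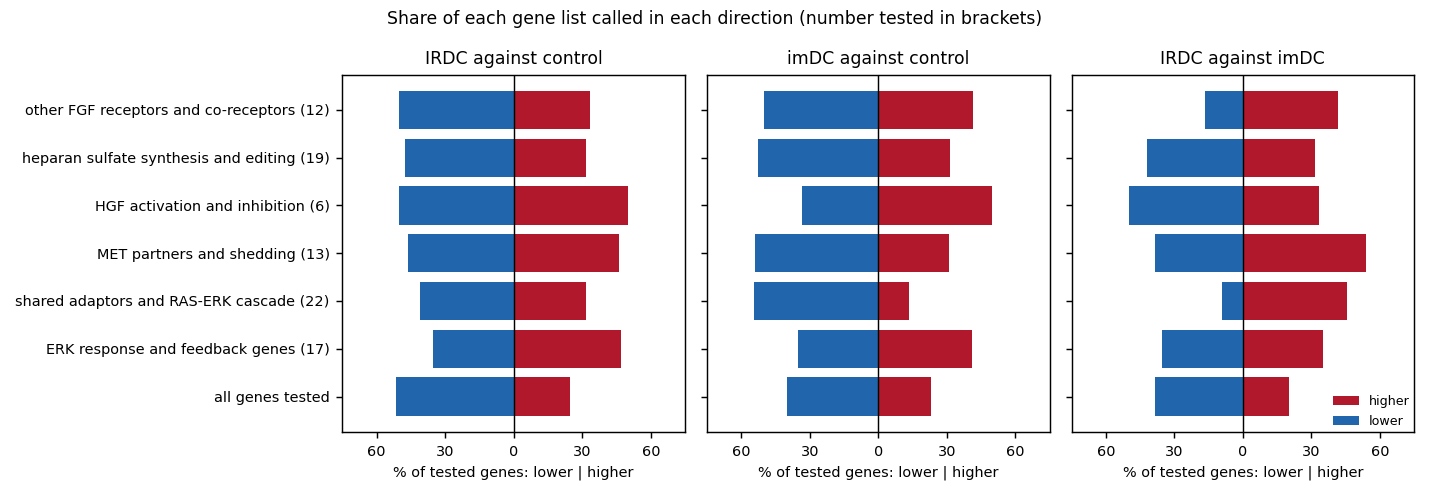
Percentage of the tested genes of 6 lists, and of all 12521 genes, called higher (right) or lower (left) at an adjusted p under 0.05 in each comparison, with the number tested in brackets. Every list has calls on both sides of 0 in all 3 comparisons, and adaptor and RAS-ERK genes are called lower in 12 of 22 cases in imDC against control but higher in 10 of 22 in IRDC against imDC. With TMM-like scaling, not drawn, these become 6 and 15 of 22, beside 29.5% lower and 29.0% higher among all genes.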

How the data were processed

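Messenger RNA of rat bone marrow stromal cells was sequenced in 11 libraries. The authors deposited FPKM values for 32883 genes, of which 388 carry no gene name. Per the submitters' processing notes the build was rn6. The same notes list, with no role given, HTSeq 0.13.5 and Cufflinks 0.17.3, the aligner STAR 2.7.1a with SAMtools 1.3.1, and for read quality and trimming FastQC 0.11.9 and cutadapt 1.18. Which tool made the FPKM values, and whether counting used strand, is not given in the sources used here. Per the labels, RNA was taken up in TRIzol, mRNA was captured on beads and libraries were sequenced on an Illumina NovaSeq.

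Values were taken as log2(FPKM + 1). Genes reaching 1 FPKM in 3 or more libraries, 12521 in all, entered a single limma fit of the 3 groups (eBayes with a trend, no block). Each of the 3 comparisons was adjusted by Benjamini-Hochberg over all genes tested, with calls at an adjusted p under 0.05. Fold changes on this scale understate those of low genes. The steps between FPKM values gave back whole reads for all 21487 genes above 0 (relative tolerance 1e-08). Each gene was given the smallest whole numbers that keep its ratios, which can understate genes with few reads. These reads gave the library depths, gene lengths and an alternative fit. The fit was also run on simulated data in which few genes changed and no shift of scaling was put in. That setting differs from these data, so the run does not bear on how far the calls here hold.

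The 10 genes and the pathway lists were chosen with earlier results of these data known. Named list genes are up to 3 called genes in each direction, with the largest changes in IRDC against control and at least 2 FPKM in the higher group. Fgf family genes of these lists with a group mean of at least 1 FPKM were added. Other named genes, and the pairs set in ratios, were chosen after their values were seen. A gene that the naming rule takes in is not reported here. Alternatives were pseudocounts of 0.1 and 0.5, no filter, a 5 FPKM filter, TMM-like scaling, quantile normalization, no trend, a replicate block, a fit of the compared libraries alone, a test against a minimum 2-fold change, and each library left out in turn. A voom fit on recovered reads was added after the data were seen. Gene overlaps and promoter windows came from RefSeq (GRCr8). The fits ran in limma 3.58.1 under R 4.3.3. Tables and plots used pandas 2.3.3, SciPy 1.17.1, NumPy 2.4.6 and matplotlib 3.10.9 under Python 3.11.15.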

Additional observations from a re-analysis of the deposited data

Results flagged for a closer look

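Among 20 groups of 4 libraries checked for a library far from the others, 2 were singled out, and chance alone gives about 1 such library in 20 groups. Hgf in control replicate 4 stood at 1.32 FPKM, while the other 3 control libraries lay at 1.61 to 1.64 FPKM. Without that library Hgf was higher in IRDC than in control by 2.74 on the log2(FPKM + 1) scale, against 2.78 with it. Fgf21 in IRDC replicate 2 stood at 0.0759 FPKM, which is 1 read, while the other 3 IRDC libraries had 0 reads.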

How the results depend on the processing

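All 7 tested genes were called in each comparison, and 430 of 459 values of single genes under the 22 alternatives kept both direction and call. For part of these values only the call could change, as the estimate stayed the same. This held for both filter settings, no trend, the compared libraries alone, the 2-fold minimum and a library left out of a group not compared. With a minimum 2-fold change tested in limma, 1 gene was called in imDC against control, 4 in IRDC against control and 1 in IRDC against imDC, and over all genes it left 478, 1433 and 365 calls of 7912, 9517 and 7362. Leaving out 1 library gave 7 to 7 calls in both comparisons with control and 6 to 7 in IRDC against imDC, where the call lost was that of Fgfr1. Under the replicate block 7 genes were called in each comparison, and it changed no call among these genes. Libraries with equal numbers correlated little: deviations from the group mean had r between -0.0482 and 0.069 over 10 pairs. Still, 8 of 11 libraries correlated best with their own number. These values do not settle whether the libraries were weakly paired. Fgf7 turned to -0.0063 in IRDC against control with quantile normalization, and to 0.0224 in IRDC against imDC with TMM-like scaling, where Fgfr1 turned to 0.0282. The cause was not tested. With the 5 FPKM filter Fgf2 was not among the genes tested. Across the list counts the minimum 2-fold change was the setting that lowered them by over 1.5 times, and without a filter more genes of the FGF ligand and homologous factor lists were called. Depth limits Fgf9, Fgf18 and Fgf21, which had 105, 13 and 4 reads over all libraries.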
